A study of Ovis aries and Bos taurus with 15 samples.

Results

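Expression of 10 genes of endothelial junctions and endothelial identity was followed in 15 samples of endothelial cells, hybridised 1 per array to an Affymetrix array that carries bovine probes. The genes were PECAM1, CDH5, CLDN5, ESAM, MCAM, ROBO4, PLVAP, EMCN, KLF2 and KLF4, and every probe set that the platform annotation assigned to exactly 1 of these symbols was taken, whatever its values. 8 of the 10 genes had such a probe set, 12 probe sets in all, of the 24016 probe sets and 9155 named genes on the array outside the controls. ESAM and KLF2 had none and are not described here. The 3 groups held 5 arrays each: bovine cells that the labels call BAEC and give no treatment for, ovine PAEC with DMSO as vehicle, and ovine PAEC treated for 24 h with 5 µM GW9662. GW9662 binds PPARγ covalently and blocks it; PPARγ is a nuclear receptor with roles in endothelial inflammation and lipid handling. All cells grew in DMEM with 10% fetal bovine serum, per the labels. Species, cell source and the stated DMSO vehicle differ together between the bovine and ovine groups, and sheep RNA met bovine probes. Species, cell source, vehicle and probe match thus cannot be told apart in that comparison. The labels do not state that the replicates came from different cultures or animals. A p-value here thus reflects sample-to-sample spread alone, part or all of which may be technical.

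Endothelial cells line vessels as a single sheet whose tightness depends on the contacts between neighbours. VE-cadherin, the product of CDH5, builds the adherens junction, claudin-5 (CLDN5) seals the tight junction, and PECAM1 and ESAM are immunoglobulin-type adhesion molecules at the same border. MCAM is a further adhesion molecule of the endothelial surface, ROBO4 an endothelial receptor that steadies the barrier, PLVAP the protein of the diaphragms that cover fenestrae and caveolae, and endomucin (EMCN) a sialomucin of the luminal side. KLF2 and KLF4 are zinc finger transcription factors that shear stress induces and that hold the endothelium in a quiescent state.

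Values are the deposited log2 expression values, on which 1 unit is a doubling of signal. A value under 3 was taken as lying at the floor of the arrays, where 45.9% of all probe sets had their mean, and such a reading may stand for little or no transcript. Because probes differ in affinity, a level is compared between groups for the same probe set and never between probe sets. Where a gene had 2 probe sets, they are called the brighter and the dimmer, and the brighter stands for the gene. Differences come from limma with Benjamini-Hochberg adjustment over all 24016 probe sets, called at an adjusted p under 0.05, and are given with their standard error (SE). Array medians lay between 3.18 and 3.27. Vehicle replicate 1 stood apart from its group, with a median absolute deviation of 0.0403 from the group's median profile, against 0.0112 to 0.0215 in the other vehicle arrays. The 3′ minus 5′ difference of 6 control transcripts, a measure of RNA quality, was 0.881 ± 0.043 in bovine arrays, 1.18 ± 0.085 in vehicle arrays and 0.956 ± 0.074 in GW9662 arrays (SD, n = 5). Vehicle arrays lay above all others in it (two-sided exact permutation p = 0.00794 in both comparisons, the smallest that 5 against 5 arrays can give).

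The endothelial label was checked on 8 defining markers. CDH5, PECAM1, the angiopoietin receptor TEK, its relative TIE1, the nitric oxide synthase NOS3 and the TGF-β co-receptor ENG had group means of 8.84 or more in all 3 groups. Von Willebrand factor, VWF, was at the floor in all 3 (means 2.28 to 2.31), and the VEGF receptor KDR was dim, at 3.08 in bovine, 2.64 in vehicle and 3.79 in GW9662 arrays. Of the measured markers of smooth muscle, fibroblasts, leukocytes and epithelium, most lay at the floor: 5 of 7, 7 of 10, 7 of 8 and 9 of 10 in the vehicle arrays, where TAGLN, SMTN, COL1A2, COL3A1, THY1, CD14 and KRT5 did not. ACTA2, MYH11, DES, COL1A1, PTPRC and EPCAM were under 3 in every group. Other markers of the same lists lay far above the floor. COL1A2 was at 11.24 in bovine, 10.33 in vehicle and 10.36 in GW9662 arrays. COL3A1 was at 10.41, 10.44 and 10.55 in the same order. TAGLN was at 7.18 in vehicle and 7.16 in GW9662 arrays, and higher in bovine arrays. The share of other cell types in the samples was not tested. In such bulk samples, fewer cells of a type and less RNA per cell cannot be told apart.

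**Figure D1:**
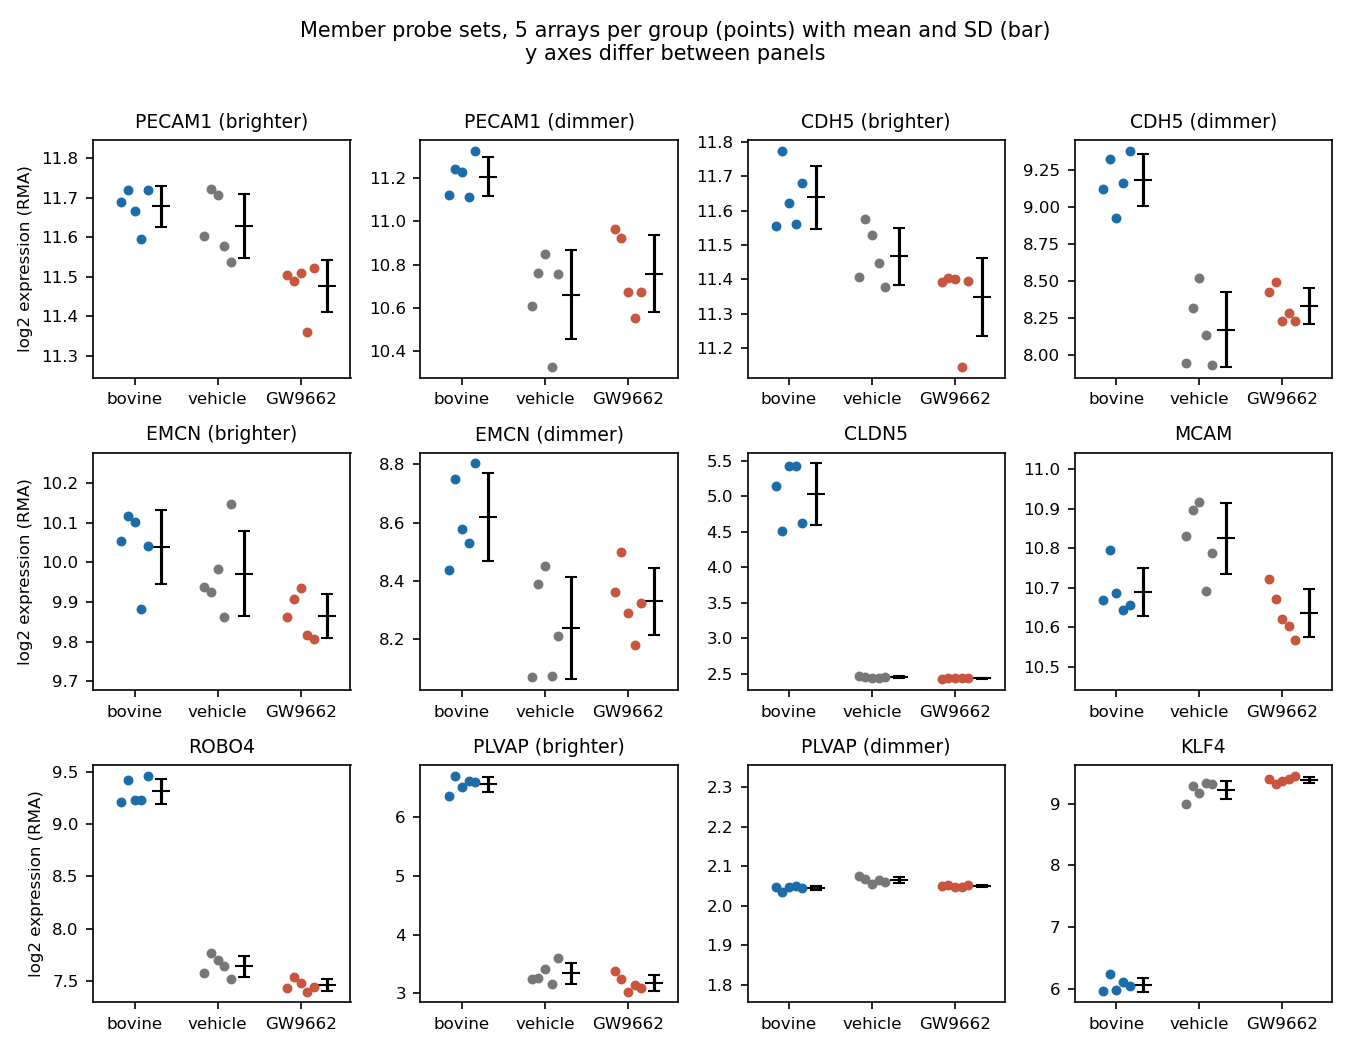
Log2 expression of each of the 12 probe sets (y axis, RMA values) on the 5 arrays of each group (points), with the group mean and SD beside them. CLDN5, ROBO4 and the brighter PLVAP probe set were high in bovine cells and KLF4 was high in ovine cells, while the vehicle and GW9662 groups lay within 0.19 of each other in mean for every probe set.

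The first comparison asked whether GW9662 treatment changed these genes in ovine PAEC. Whether PPARγ was active or blocked in these cells was not tested. None of the 12 probe sets passed: 0 were called by limma (adjusted p from 0.178 to 0.570), where 0.183% of all probe sets (44) were called, a count that ran from 9 without vehicle replicate 5 to 62 without GW9662 replicate 3. At an unadjusted p under 0.05 there were 4 of 12 (3 lower and 1 higher), against 21.4% of all probe sets (14.5% lower). In 2 of 12, both lower, the groups did not overlap, against 14.6% of all probe sets. These were the brighter PECAM1 probe set and the dimmer PLVAP probe set, which lay at the floor and differed by only -0.01. The 95% intervals of the 12 differences, unadjusted for their number, reached from -0.37 to 0.43, which is from 1.30-fold down to 1.34-fold up in signal and says nothing of genes at the floor. The brighter or only probe set read lower with GW9662 in 7 of 8 genes, with a median difference of -0.14, beside 5559 of 9155 genes lower with a median of -0.01 over all. Over the 12 probe sets 8 values were negative, close to the 64.9% of all probe sets.

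Among the surface proteins, MCAM read 10.83, 10.90, 10.92, 10.69 and 10.79 in vehicle replicates 1 to 5 and 10.72, 10.67, 10.62, 10.60 and 10.57 in the GW9662 replicates. The ranges overlapped only through vehicle replicate 4 and GW9662 replicate 1, and the difference of -0.19 (SE 0.046) did not pass (adjusted p = 0.178, unadjusted p = 0.00290). ROBO4 read 7.57, 7.76, 7.70, 7.64 and 7.51 with vehicle and 7.43, 7.54, 7.48, 7.40 and 7.44 with GW9662. Its difference of -0.18 (SE 0.0485) did not pass either (adjusted p = 0.205), and the ranges crossed between 7.51 and 7.54. PLVAP lay just above the floor in ovine cells, from 3.16 to 3.60 with vehicle and from 3.03 to 3.38 with GW9662, with a difference of -0.16 (SE 0.095, adjusted p = 0.299) that became -0.09 without vehicle replicate 5.

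The junction genes PECAM1 and CDH5 and the sialomucin gene EMCN each had 2 probe sets well above the floor, and within each gene these gave values of opposite sign, none of which passed. The brighter PECAM1 probe set read 11.60, 11.72, 11.71, 11.58 and 11.54 with vehicle and 11.51, 11.49, 11.51, 11.36 and 11.52 with GW9662. All 5 GW9662 arrays lay below all 5 vehicle arrays, as they did for 12.7% of all probe sets, and the difference was -0.15 (SE 0.045, adjusted p = 0.217). The dimmer PECAM1 probe set read 10.61, 10.76, 10.85, 10.33 and 10.76 with vehicle and 10.96, 10.92, 10.68, 10.55 and 10.67 with GW9662. Here the groups overlapped broadly and the difference was 0.10 (SE 0.115, adjusted p = 0.570). It was 0.01 without vehicle replicate 4, the lowest array (adjusted p = 0.931), and 0.04, 0.06 and 0.15 without GW9662 replicate 1, 2 or 4, so its distance from 0 rests on single arrays.

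The same split was seen in CDH5. Its brighter probe set read 11.41, 11.58, 11.53, 11.45 and 11.38 with vehicle and 11.39, 11.40, 11.40, 11.14 and 11.40 with GW9662, a difference of -0.12 (SE 0.060, adjusted p = 0.257). The dimmer one read 7.95, 8.32, 8.52, 8.14 and 7.93 with vehicle and 8.42, 8.50, 8.23, 8.28 and 8.23 with GW9662, a difference of 0.16 (SE 0.118, adjusted p = 0.374). Both ranges overlapped. The brighter value became -0.07 without GW9662 replicate 4, and the dimmer one ran from 0.10 without vehicle replicate 5 to 0.25 without vehicle replicate 3. The EMCN probe sets gave -0.11 (SE 0.052, adjusted p = 0.251) for the brighter and 0.09 (SE 0.089, adjusted p = 0.487) for the dimmer, again with overlapping groups. The brighter became -0.06 without vehicle replicate 5, and the dimmer was 0.05 without vehicle replicate 1 or 4 or GW9662 replicate 2 and 0.14 without vehicle replicate 3.

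CLDN5 could not be followed in the ovine cells, since its probe set lay at the floor, from 2.43 to 2.47 with vehicle and from 2.42 to 2.44 with GW9662. The transcription factor gene KLF4 gave the only positive value among the brighter or only probe sets. It read 8.99, 9.29, 9.18, 9.33 and 9.33 with vehicle and 9.40, 9.33, 9.36, 9.41 and 9.45 with GW9662. The ranges met at 9.33, and the difference of 0.17 (SE 0.0645) did not pass (adjusted p = 0.218, unadjusted p = 0.0295). Vehicle replicate 1, the array that stood apart, was the lowest of these KLF4 values, and without it the difference was 0.11 (adjusted p = 0.280). Leaving out that array moved no other member value of this comparison by over 1.5 times except those of the dimmer CDH5 and EMCN probe sets, which became 0.10 and 0.05 (adjusted p = 0.584 and 0.738).

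**Figure D2:**
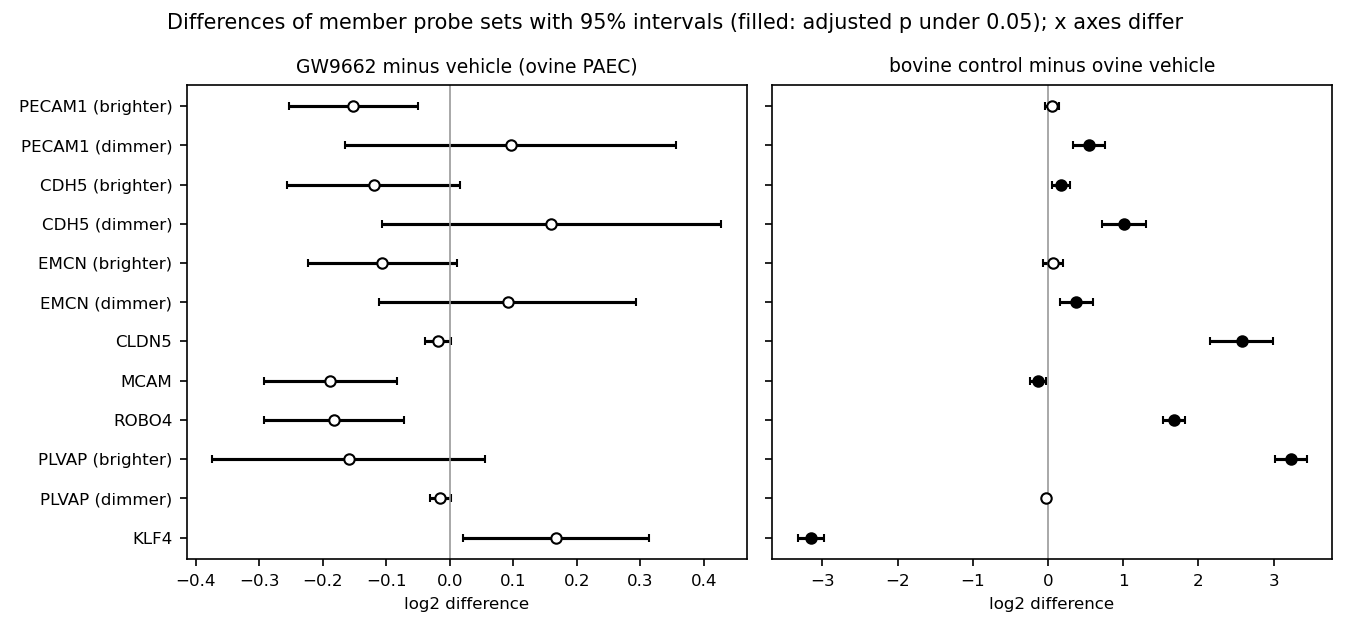
Log2 differences of the 12 probe sets (x axis) with 95% intervals (bars), for GW9662 minus vehicle on the left and bovine control minus ovine vehicle on the right, each from 5 arrays per group. No probe set is filled (adjusted p under 0.05) on the left and 9 are filled on the right, where the differences run from -3.16 for KLF4 to 3.23 for the brighter PLVAP probe set.

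The second comparison set the bovine BAEC against the ovine PAEC given vehicle. In it 9 of the 12 probe sets were called, 7 higher and 2 lower in bovine cells, where 45.2% of all probe sets were called (15.6% higher and 29.6% lower). In 7 of the 12 the groups did not overlap, beside 53% of all probe sets. The dimmer PLVAP probe set, at the floor in both groups, was among these. PLVAP, CLDN5, ROBO4 and KLF4 had large differences that passed under every alternative tried and with any 1 array left out: the first 3 were higher in bovine cells, and KLF4 was lower.

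PLVAP, the diaphragm protein gene, read 6.37, 6.71, 6.52, 6.63 and 6.61 in bovine replicates 1 to 5 and 3.24, 3.26, 3.41, 3.16 and 3.60 in the vehicle replicates. The groups lay far apart, with a difference of 3.23 on the log2 scale (SE 0.091, 9.39-fold, adjusted p = 1.32e-08). The ovine values were close to the floor. A second PLVAP probe set lay at the floor in all 3 groups (means 2.05, 2.07 and 2.05 in bovine, vehicle and GW9662 arrays), so it recorded no PLVAP signal even in the bovine cells, and its groups differed by only -0.02 (adjusted p = 0.0838).

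CLDN5, the tight junction gene, read 5.14, 4.51, 5.42, 5.43 and 4.62 in bovine cells and 2.47, 2.46, 2.44, 2.43 and 2.45 in ovine cells. The difference was 2.58 (SE 0.185, adjusted p = 7.03e-06). The ovine mean was at the floor, so the size of the difference in transcript is not known. Bovine cells had the widest spread of any member here (SD 0.44), with replicates 2 and 5 below the other bovine arrays. The match of sheep RNA to the bovine probes of CLDN5 and PLVAP was not tested.

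ROBO4 was measured well above the floor in both. It read 9.22, 9.43, 9.23, 9.23 and 9.46 in bovine cells and 7.57, 7.76, 7.70, 7.64 and 7.51 in vehicle cells, without overlap, for a difference of 1.67 (SE 0.066, 3.19-fold, adjusted p = 1.28e-07). KLF4 ran the other way. It read 5.96, 6.24, 5.99, 6.10 and 6.04 in bovine cells against 8.99, 9.29, 9.18, 9.33 and 9.33 in vehicle cells, and the difference of -3.16 (SE 0.077, adjusted p = 5.14e-09) was the largest downward difference among the 12 probe sets.

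PECAM1, CDH5, EMCN and MCAM were bright in both species, and their brighter or only probe sets differed by 0.17 or less. The brighter PECAM1 probe set read 11.69, 11.72, 11.67, 11.60 and 11.72 in bovine cells, all within the range of the vehicle arrays, and its difference was 0.05 (SE 0.041, adjusted p = 0.329, 95% interval -0.04 to 0.14). The brighter EMCN probe set differed by 0.07 (SE 0.061, adjusted p = 0.353, interval -0.07 to 0.21). The brighter CDH5 probe set read 11.56, 11.77, 11.62, 11.56 and 11.68 in bovine cells and was higher by 0.17 (SE 0.053, adjusted p = 0.0296), with overlapping groups. MCAM was lower in bovine cells by a difference of -0.13 (SE 0.046, adjusted p = 0.0420), from 10.67, 10.79, 10.69, 10.64 and 10.66, also with overlap. The calls of these 2 genes were fragile. The CDH5 call was lost on leaving out bovine replicate 2, 3 or 5 or vehicle replicate 1, 4 or 5 (adjusted p up to 0.0628). The MCAM call was lost on leaving out any array but bovine replicate 2 and vehicle replicate 4 (adjusted p up to 0.0877), with arrays centred on their medians (adjusted p = 0.174), after a second quantile normalisation (0.0554) and with dim probe sets left out (0.0728).

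The dimmer probe sets of the same genes gave larger differences. The dimmer CDH5 probe set read 9.12, 9.32, 8.93, 9.16 and 9.38 in bovine cells, above all vehicle arrays, and was higher by 1.01 (SE 0.130, adjusted p = 0.000331). The dimmer PECAM1 probe set read 11.12, 11.24, 11.23, 11.11 and 11.32, also above all vehicle arrays, and was higher by 0.54 (SE 0.095, adjusted p = 0.00215). The dimmer EMCN probe set was higher by 0.38 (SE 0.0985, adjusted p = 0.0163), with groups that met between 8.44 and 8.45. For each of the 3 genes, then, the size of the difference between bovine and ovine cells depended on the probe set read.

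**Figure D3:**
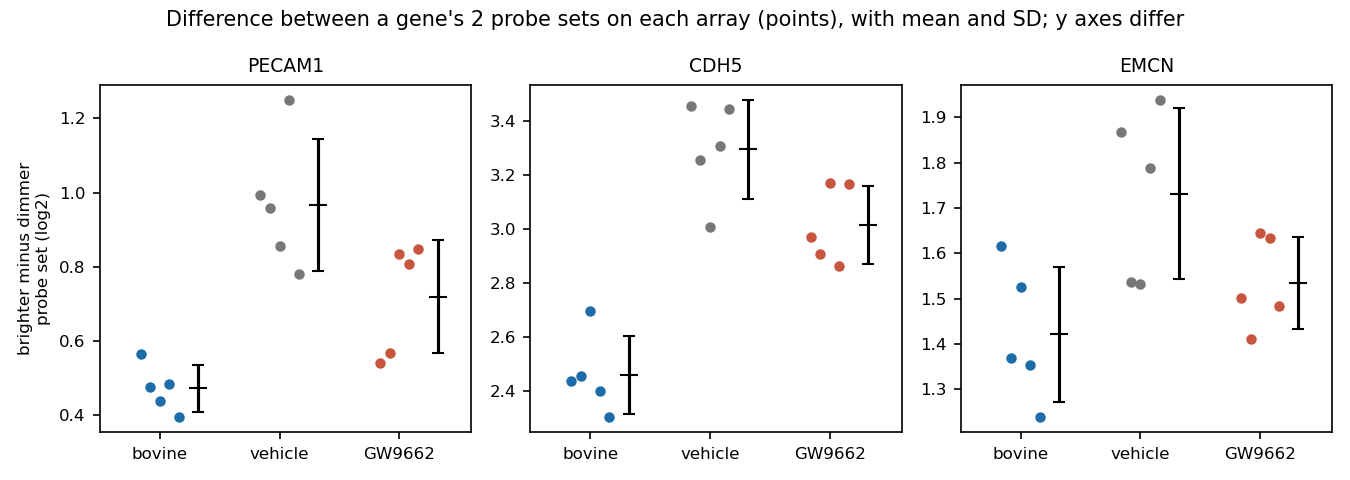
Brighter minus dimmer probe set of PECAM1, CDH5 and EMCN on each array (y axis, log2; points), with the mean and SD of the 5 arrays of each group. For PECAM1 and CDH5 the bovine arrays lie below all vehicle arrays, and for each gene the GW9662 mean lies between the bovine and the vehicle means.

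How far the 2 probe sets of a gene moved apart was therefore taken as a value of its own on each array, a measure chosen after the values were seen. For CDH5 the brighter minus dimmer difference was 2.46 ± 0.14 in bovine, 3.29 ± 0.18 in vehicle and 3.01 ± 0.14 in GW9662 arrays (SD, n = 5). For PECAM1 it was 0.473 ± 0.063, 0.968 ± 0.18 and 0.720 ± 0.15, and for EMCN 1.42 ± 0.15, 1.73 ± 0.19 and 1.53 ± 0.10, in the same order. Between bovine and vehicle arrays CDH5 and PECAM1 did not overlap (two-sided exact permutation p = 0.00794, adjusted p = 0.0238 over 6 tests), and EMCN gave an exact permutation p of 0.0317 (adjusted p = 0.0595). Between GW9662 and vehicle arrays the exact permutation p was 0.0397 for CDH5, 0.0556 for PECAM1 and 0.0794 for EMCN, and none passed (adjusted p = 0.0595, 0.0667 and 0.0794). Without vehicle replicate 3 the adjusted p became 0.0159 for CDH5 and 0.0381 for EMCN, in EMCN also between bovine and vehicle arrays (0.0381), and without vehicle replicate 5 it became 0.0159 for PECAM1. The other 9 of 10 fits with 1 array left out passed for none of the 3 genes in GW9662 against vehicle. There the adjusted p rose to 0.119 for CDH5, 0.135 for PECAM1 and 0.159 for EMCN. For EMCN between bovine and vehicle arrays 9 of 10 did not pass either, with an adjusted p up to 0.111. Both comparisons share the 5 vehicle arrays, so their common direction is no independent repeat.

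The RNA quality measure ran in the same order of groups as these probe set differences, at 0.881 in bovine, 0.956 in GW9662 and 1.18 in vehicle arrays. With it as a covariate the dimmer PECAM1, CDH5 and EMCN probe sets turned negative for GW9662 minus vehicle (-0.13, -0.28 and -0.18, adjusted p of 0.968 or more). For bovine minus vehicle the covariate left 4 calls, those of PLVAP, CLDN5, ROBO4 and KLF4, and the others were not called, with 0.24 for the dimmer CDH5 probe set (adjusted p = 0.735) and 0.44 for the dimmer PECAM1 probe set (adjusted p = 0.488). Since the measure did not overlap between the groups of either comparison, RNA quality and group cannot be told apart. Between bovine and ovine arrays probe match cannot be told apart from either.

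The other genes of junctions and endothelial identity were taken from 5 lists, with 1 probe set per gene, the brightest. For GW9662 none of the 17 adherens junction, 19 tight and gap junction, 25 receptor and surface, 16 transcription factor and 5 KLF genes measured was called by limma, beside 0.183% of all probe sets, with 5, 6, 8, 8 and 2 of them at an unadjusted p under 0.05, where 703 of all 9155 genes were higher and 1140 lower. Their medians were 0.01, -0.02, -0.05, 0.02 and 0.07, beside -0.01 for all 9155 genes. RAMP2, an accessory protein for adrenomedullin signalling, was nearest to a call at -0.23 (SE 0.039, adjusted p = 0.0770), and it passed after a second quantile normalisation (-0.24, adjusted p = 0.0262), with array weights (0.0483) and in a fit of all 15 arrays (0.0160). The hypoxia factor EPAS1 was at 0.36 (SE 0.068, adjusted p = 0.109) and passed without vehicle replicate 1 (0.29, adjusted p = 0.0406), with array weights (0.0373) and in the fit of all 15 arrays (0.0176). PDCD10, a partner of the cerebral cavernous malformation proteins at endothelial junctions, was at 0.22 (adjusted p = 0.129, and 0.0436 in the fit of all 15 arrays), the co-receptor ENG at -0.23 (adjusted p = 0.205), the endothelial ETS factor ERG at -0.10 and KLF10 at 0.27 (adjusted p = 0.217 each). A dim second ERG probe set had the opposite sign (0.22, adjusted p = 0.291). Other probe sets of EPAS1 (0.77), PDCD10 (0.03 and 0.47) and KLF10 (0.43) were positive and not called. The small GTPase RAP1A was at 0.22 (adjusted p = 0.217), KLF11 at 0.26 (adjusted p = 0.223), and the claudins CLDN4 and CLDN15, both at the floor, at -0.05 and -0.02 (adjusted p = 0.217 each). The largest differences in these lists, named after their values were seen, were those of KDR and ARHGAP29. KDR, dim in both groups, was at 1.15 (SE 0.347, adjusted p = 0.217) and ARHGAP29 at 0.55 (SE 0.211, adjusted p = 0.218).

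Between bovine and ovine vehicle cells 2001 of all 9155 genes were higher and 2507 lower in bovine cells (median -0.02), and the counts of each list stand against these. In the lists, 7 of 17 adherens junction genes were higher and 4 lower in bovine cells (median 0.17). N-cadherin, CDH2, the other main cadherin of endothelial cells, was lower in bovine cells by a difference of -1.97 (SE 0.0815, 8.75 against 10.72, adjusted p = 1.76e-07). Also lower was vinculin, VCL, which ties cadherin complexes to actin, at -1.01 (SE 0.0516, adjusted p = 7.06e-07). Plakoglobin, JUP, a catenin that binds VE-cadherin, was higher by 1.15 (SE 0.109, adjusted p = 4.30e-05) and ARHGAP29 by 1.04 (SE 0.0653, adjusted p = 2.96e-06). With the RNA quality covariate CDH2 was at -2.17 (adjusted p = 0.000875) and still called, while JUP was at 0.64 (adjusted p = 0.197) and not. A second VCL probe set was also lower (-0.22, adjusted p = 0.0106).

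Of 19 tight and gap junction genes 1 was higher and 6 lower, with a median of -0.03 close to that of all genes. Among the lower ones only CGN had means above 3. TJP1, TJP3 and CLDN3, named after their values were seen, lay at the floor in both groups, with differences of -0.09, -0.03 and -0.03. Cingulin, CGN, a cytoplasmic tight junction protein, was lower by a difference of -1.02 (SE 0.102, 3.05 against 4.07, adjusted p = 6.42e-05). The adhesion molecule JAM2 was higher by 0.55 (SE 0.141, 3.61 against 3.06, adjusted p = 0.0156). Both were dim, and with the covariate JAM2 stayed at 0.55 but was not called (adjusted p = 0.601). The claudins CLDN11 and CLDN4 were at the floor in both, where -0.07 and -0.06 passed (adjusted p = 0.0216 and 0.0172) and were lost with centring (adjusted p = 0.133 and 0.261), which left 2 calls in the list. The list held 4 calls without bovine replicate 1, bovine replicate 4 or vehicle replicate 4.

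Of 25 receptor and surface genes 8 were higher and 8 lower (median 0.06). Of the lower ones 3, MMRN1, LYVE1 and VWF, named after their values were seen, lay at the floor with differences of -0.07, -0.04 and -0.03, and the list held 13 calls with dim probe sets left out, with centring or after a second quantile normalisation. The C-type lectin-like receptor CD93 was higher by 1.29 (SE 0.0437, 12.13 against 10.84, adjusted p = 4.51e-08) and the caveolar coat protein CAVIN1 by 0.74 (SE 0.0881, adjusted p = 0.000195), the latter not called with the covariate (0.62, adjusted p = 0.233). Thrombomodulin, THBD, was lower by a difference of -1.33 (SE 0.0808, 10.86 against 12.19, adjusted p = 2.44e-06) and its partner in protein C activation, PROCR, by -0.77 (SE 0.0714, adjusted p = 3.67e-05). Of 16 transcription factors 7 were higher and 4 lower (median 0.04). ETS1 was higher by 2.45 (SE 0.153, adjusted p = 2.87e-06), and its other 2 probe sets were higher too (0.56 and 1.02). SOX18 was higher by 1.40 (SE 0.0966, adjusted p = 5.48e-06), the venous factor NR2F2 by 1.30 (SE 0.0789, adjusted p = 2.36e-06) and the Notch target HEY1 by 1.20 (SE 0.248, adjusted p = 0.00577). With the covariate HEY1 was at 0.81 and not called (adjusted p = 0.690). A floor-level NR2F2 probe set was lower (-0.04, adjusted p = 0.0196).

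Of the 5 other KLF genes measured, 4 were called higher in bovine cells and 0 lower (median 0.25), whereas KLF4 was lower. The remaining gene, KLF5, was dim and also read lower, at -0.43 (SE 0.188, 3.38 against 3.82), but was not called (adjusted p = 0.0834). With the covariate 0 of the 5 were called and KLF4 still was: KLF11 was at 0.88 (adjusted p = 0.156), KLF15 at 0.78 (adjusted p = 0.0769) and KLF13 at -0.14 (adjusted p = 0.832). KLF11 was higher by 1.28 (SE 0.119, adjusted p = 3.80e-05), with 2.07 and 0.02 on its other probe sets, KLF15 by 0.48 (SE 0.0854, adjusted p = 0.00250) and KLF13 by 0.24 (SE 0.0771, adjusted p = 0.0344). The KLF13 call was lost on leaving out any bovine array or vehicle replicate 4, and the list then held 2 calls without bovine replicate 1, 3, 4 or 5. Some markers of other cell types also differed between bovine and ovine cells, while the summed epithelial markers overlapped. The summed level of the smooth muscle markers (log2 of the summed linear values) was 9.04 to 9.32 in bovine, 7.43 to 7.77 in vehicle and 7.41 to 7.73 in GW9662 arrays, that of fibroblast markers 11.88 to 11.94, 11.33 to 11.50 and 11.45 to 11.59, that of leukocyte markers 5.37 to 5.42, 6.99 to 7.26 and 7.08 to 7.31, and that of epithelial markers 6.18 to 6.44, 6.14 to 6.44 and 6.21 to 6.36. Such a sum is set mostly by its brightest genes. TAGLN, which is not specific to muscle, was higher in bovine cells by 1.83 (adjusted p = 5.76e-07). The leukocyte marker CD14 was lower by a difference of -4.42 (adjusted p = 6.3e-10), while PTPRC was under 3 in all groups. Among fibroblast markers COL1A2 was higher by 0.91 (adjusted p = 4.13e-06) and COL3A1 was at -0.03 (adjusted p = 0.281). Of the 7, 10, 8 and 10 markers, in the order of the sums, 2, 2, 0 and 0 were called higher. Called lower were 1, 4, 3 and 5, beside 2001 higher and 2507 lower of all 9155 genes. All of those called lower except CD14 lay at the floor, with means under 3 in both groups and differences from -0.03 to -0.09. The part of these markers in the differences of the endothelial genes was not tested.

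**Figure D4:**
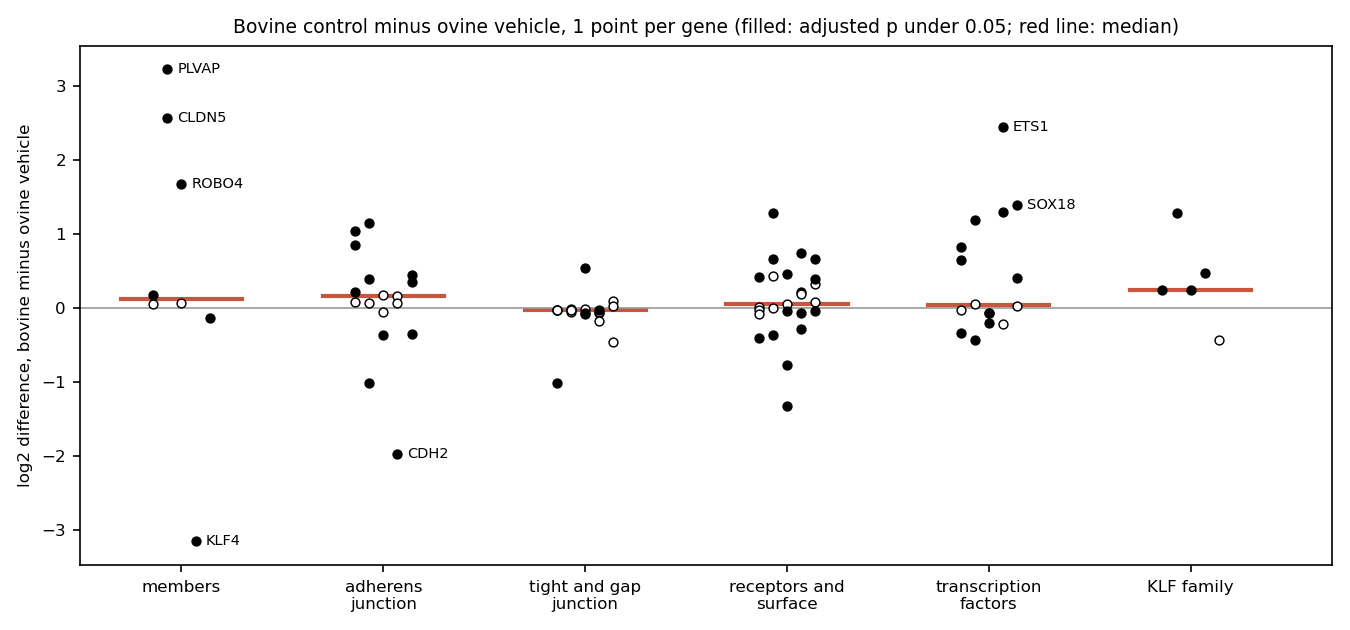
Log2 difference between bovine control and ovine vehicle arrays (y axis) for the 8 measured member genes and 5 lists of related genes, 1 point per gene, filled where the adjusted p was under 0.05, with the list median as a red line. PLVAP, CLDN5 and KLF4 lie farther from 0 than any gene of the 5 lists, the next being ETS1 at 2.45.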

How the data were processed

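The deposited table holds log2 expression values from RMA, run by the authors according to the submitters' processing notes, whose version is not given in the sources used here. RMA corrects background, quantile-normalises arrays and summarises each probe set. All 15 columns were matched to samples by name. After 112 control probe sets were left out, 24016 remained, of which 13292 had 1 gene symbol in the platform annotation, 86 had several and 10638 had none. Each comparison (GW9662 with vehicle, bovine with ovine vehicle) was a separate limma 3.58.1 fit (lmFit, eBayes, R 4.3.3) of its 10 arrays. The fits were tested on simulated data. Single values per array were compared by exact permutation tests. Array data have no read depth, so precision is limited by the number of arrays. The members, the lists of related genes and markers and the alternatives were chosen with earlier results of these data known. All member probe sets were described. From each list were named up to 4 called genes of largest difference whose groups did not overlap, or, where none was called, the 2 of smallest p. Alternatives were centring, quantile normalisation, a filter on means under 3, other variance models, array weights, 1 fit over all 15 arrays, blocking on replicate number, an RNA quality covariate, 1 probe set per gene, and leaving out each array. Member sequences were not used here.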

Additional observations from a re-analysis of the deposited data

Results flagged for a closer look

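Among 39 groups of 5 arrays examined (the 12 probe sets and the RNA quality measure in 3 groups each), 3 held an array far from the others, where chance gives about 1 in 20 groups. The brighter CDH5 probe set was lowest in GW9662 replicate 4, at 11.14 against 11.39 in the nearest array. The same array was lowest for the brighter PECAM1 probe set, at 11.36 against 11.49. MCAM was highest in bovine replicate 2, at 10.79 against 10.69 in the nearest array. Without GW9662 replicate 4 the differences from vehicle were -0.07 for CDH5 and -0.12 for PECAM1 (limma, adjusted p = 0.412 and 0.388). Without bovine replicate 2 that of MCAM from vehicle was -0.16 (adjusted p = 0.0292).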

How the results depend on the processing

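For GW9662 against vehicle, 0 member probe sets were called by limma under every alternative run and with any 1 array left out (lowest 0, highest 0). Of bovine against vehicle, 9 were called, 7 to 8 with 1 array left out, 6 to 10 under the other alternatives, and 4 with the 3′ minus 5′ covariate. Some values changed sign. For GW9662 these were PLVAP's floor-level probe set (0.0276), CLDN5 (0.0237) and CLDN15 (0.0187) with centring, CLDN5 with a second quantile normalisation (0.00764), and the dimmer CDH5 (-0.28), PECAM1 (-0.13) and EMCN (-0.18) probe sets with the covariate. For bovine against vehicle these were PLVAP's floor-level probe set with centring (0.0145), quantile normalisation (0.000831) and the covariate (0.00197), and, with the covariate, the brighter PECAM1 (-0.0341), the dimmer EMCN (-0.0373) and KLF13 (-0.14). Over all probe sets, 44 were called for GW9662, 79.5% of them higher, against 67 (91.0%) with centring and 62 (61.3%) with quantile normalisation. With 1 array left out the count ran from 9 to 62, and it was 17 to 23 without vehicle replicate 2 or GW9662 replicate 1, 2, 4 or 5. For bovine cells 10860 were called, 34.4% higher, against 6455 (57.9%) and 6802 (47.4%), and 7335 to 10858 with 1 array left out. Other counts over all probe sets were 76 and 6586 without dim probe sets, 26 and 13157 with a trended robust variance, 65 and 11342 with array weights, 237 and 13336 with all 15 arrays, and 0 and 1601 with the covariate (1312 at an unadjusted p under 0.05 for GW9662). No pairing by replicate number was seen (same-number correlations from -0.194 to 0.172 and from -0.0968 to 0.0937, with 0 of 5 best with their own number). The labels do not say whether samples of the same number shared a culture or day, and these correlations cannot decide it. With a replicate block 0 and 9 member probe sets and 0 and 5396 of all were called by limma (3205 at an unadjusted p under 0.05 for GW9662). With the covariate the adherens, receptor and transcription factor lists held 4 calls each, the tight junction list 1 and the KLF list 0, although some lost calls kept their size (KLF15 0.78, JAM2 0.55, CAVIN1 0.62). The tight junction list held 3 with quantile normalisation and 2 without dim probe sets or with the block. The cause of these shifts was not tested.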
